A study of Mus musculus with 4 samples.

Results

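The lysosomal genes described here are 46 genes listed by symbol, covering the acid hydrolases of the lysosome, proteins of its membrane, the transcription factor gene Tfeb and subunits of the proton pump. They were measured in CD11b+ cells of mouse spleen, on arrays that read 18193 named genes. Each gene was represented by the probe set (the group of array probes that reads 1 transcript) with the highest mean over the samples, among probe sets with exactly 1 symbol. On this rule 44 of the 46 were measured, and Cd63 and Atp6v0c were not analysed here. The samples were 4 pools of RNA, each from 5 mice and read on 1 array: 2 pools from control mice, labelled low threat, and 2 from mice exposed repeatedly to social threat, labelled high threat. Strain, age, sex, the length of the exposure and the way the CD11b+ cells were isolated are not given in the sources used here. Because mice were pooled, the spread between pools is not the spread between mice.

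The lysosome is the acidic compartment in which phagocytes break down what they engulf, together with worn-out components of the cell itself. Its enzymes are proteases, glycosidases and lipid hydrolases that work at low pH, and the vacuolar ATPase, a rotary pump with a membrane sector (V0) and a cytosolic sector (V1), drives protons inward. Many of these genes carry a promoter element that the transcription factors TFEB and TFE3 bind, an E-box with flanking bases known as the CLEAR element. In splenic myeloid cells the same enzymes also trim antigens for presentation and degrade red cells taken up by macrophages.

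To show this element in the genes measured, the RefSeq promoter windows of GRCm38.p6, 250 bases before to 50 after each annotated start, were searched for the E-box core CACGTG and for the extended form TCACGTGA, which contains it. Each motif reads the same on both strands. A window was found for 38 of the 46 genes. There was no window for Asah1, Atp6v1b2, Atp6v1c1, Atp6v1h, Ctsb, Ctse, Ctsh and Npc1. The stretches of 100 bases below are those around each extended form, and around the 4 cores of Lamp1, the largest number in any of these genes. They run 5′ to 3′ along the gene, with every match in capitals.
Ctsa, chr2:164833714-164833813, plus strand: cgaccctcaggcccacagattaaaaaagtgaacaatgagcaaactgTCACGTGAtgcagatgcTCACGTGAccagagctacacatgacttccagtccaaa
Mcoln1, chr8:3500427-3500526, plus strand: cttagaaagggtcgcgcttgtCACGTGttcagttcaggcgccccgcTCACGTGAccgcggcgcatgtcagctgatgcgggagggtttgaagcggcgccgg
Ctsd, chr7:142387873-142387972, minus strand: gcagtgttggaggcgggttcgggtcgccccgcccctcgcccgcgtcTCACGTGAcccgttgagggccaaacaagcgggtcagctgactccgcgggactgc
Atp6v1a, chr16:44139338-44139437, minus strand: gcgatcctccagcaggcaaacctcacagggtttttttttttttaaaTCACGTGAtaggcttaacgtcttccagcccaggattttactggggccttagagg
Atp6v0d1, chr8:105566015-105566114, minus strand: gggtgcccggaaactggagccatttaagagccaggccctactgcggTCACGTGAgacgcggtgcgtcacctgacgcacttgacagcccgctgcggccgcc
Atp6v0e, chr17:26676346-26676445, plus strand: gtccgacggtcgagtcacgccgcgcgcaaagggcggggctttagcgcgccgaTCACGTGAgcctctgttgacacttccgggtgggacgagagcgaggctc
Lamp1, chr8:13159076-13159175, plus strand: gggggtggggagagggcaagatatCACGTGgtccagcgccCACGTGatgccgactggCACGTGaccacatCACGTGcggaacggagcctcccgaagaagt

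The extended form stood in the windows of 6 of the 38 genes (15.8%), against 304 of 27025 genes with a window (1.12%). The core, with or without these flanking bases, stood in 13 of the 38 (34.2%), the same 6 included, against 8.09% of all genes. The windows of the lysosomal genes had a median GC content of 56.3%, and all windows 52.7%. These shares describe letters in a fixed window and not binding. In the array results given below, the 6 genes with the extended form were found in every result class. Ctsa and Mcoln1 fell after social threat, Ctsd and Atp6v1a rose, and Atp6v0d1 and Atp6v0e did not pass the test. Among measured genes with a window, the core stood in 3 of 5 that rose, 5 of 14 that fell and 5 of 17 not called. Whether the element bears on these results was not tested.

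**Figure D1:**
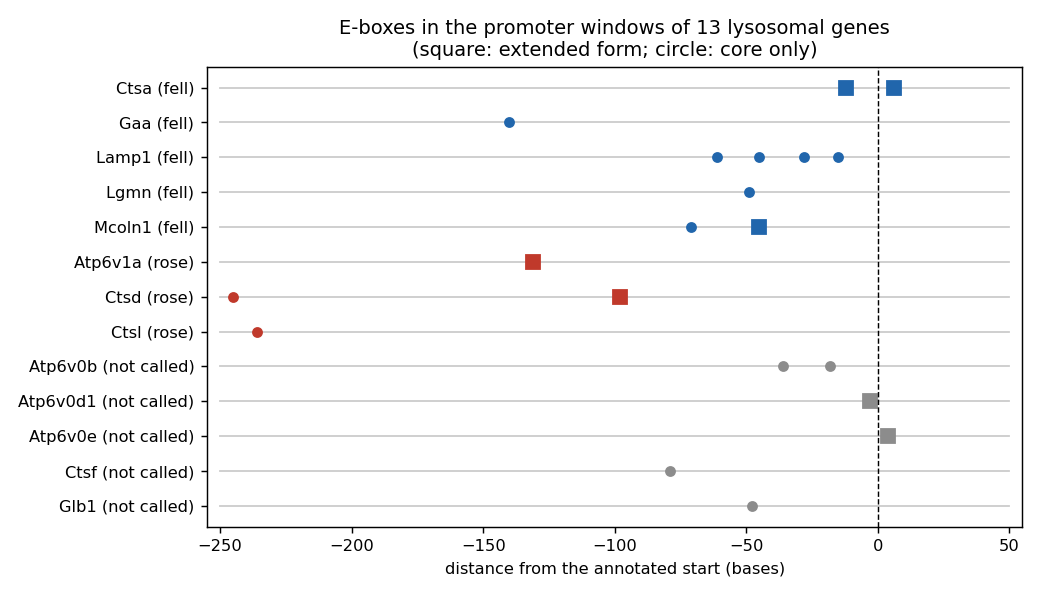
Positions of the E-box core in the promoter windows of the 13 lysosomal genes that hold it, in bases from the annotated start (dashed line). Squares mark the extended form and circles the core alone, coloured by the array result (blue fell, red rose, grey not called), and the 6 genes with a square fall into all 3 result classes.

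Levels are log2 expression as deposited, and differences are social threat minus control on that scale, so that 1 unit is a 2-fold difference. A gene is said to rise or fall where limma's test, fitted over all 45037 probe sets, gave a Benjamini-Hochberg adjusted p under 0.05. With 2 pools a group, an exact permutation test of a single gene cannot give a p below 0.333, so the adjusted p-values rest on variance shared between probe sets. The pools correlated at 0.9966 (control) and 0.9981 (social threat) within a group and at 0.9894 to 0.9904 between groups. Itgam, which encodes CD11b, was far above the array median in every pool and read 10.47 and 11.01 in the control pools and 11.64 and 11.59 in the social threat pools. It rose by 0.88 (SE 0.13, limma adjusted p = 0.0015), and the control pools differed from each other more than the social threat pools did. RMA values come without detection calls, and a level near the overall median of 4.42 cannot be told from background.

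After social threat, 16 of the 44 measured lysosomal genes fell and 6 rose. The falls took in 6 of 12 proteases, 4 of 7 genes of lipid breakdown and transport and 4 of 6 membrane proteins, while the rises were cathepsins E, L and D, the membrane protein gene Lamp2 and the pump subunit genes Atp6v1a and Atp6v1d. Further probe sets of some genes differed more, such as a dim one of Ctsb that fell 2.2-fold. On the probe set used for each gene, all of the differences were small. The deepest fall was that of Lgmn, by 0.57 (1.48-fold), the largest rise that of Ctse, by 0.50 (1.41-fold), and 0 of the 44 reached 1.5-fold, against 7.55% of all genes and 11.9% of genes with a mean above the array median. The median difference was -0.10 for the 44 genes and -0.02 for all genes.

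Among all 18193 genes, 21.1% were called, 11.7% lower and 9.4% higher. Of the lysosomal genes 50% were called, 36.4% lower and 13.6% higher. These genes are bright on the array, and only Ctsk had a mean below the array median. Among the 11034 genes with a mean above it, 33.3% were called, 18.6% lower and 14.6% higher. The pools of the groups did not overlap for 39 of the 44, with 27 lower and 12 higher, against 58.2% of all genes. Without the variance trend (limma's fit of variance on level) 2 falls (Lgmn and Lipa) and 1 rise (Atp6v1a) were called, and 6 falls and 3 rises remained without social threat pool 1, as without social threat pool 2. Leaving out control pool 1 or 2 gave 16 or 15 falls and 8 or 6 rises. With 1 social threat pool left out, the spread is read from the control pools alone, and fewer probe sets were called over the whole array as well. The differences themselves moved little. The median of the 44 genes was -0.092 without social threat pool 1 and -0.096 without pool 2, against -0.095 as reported. Lgmn and Atp6v1a kept their calls under all 11 alternatives.

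**Figure D2:**
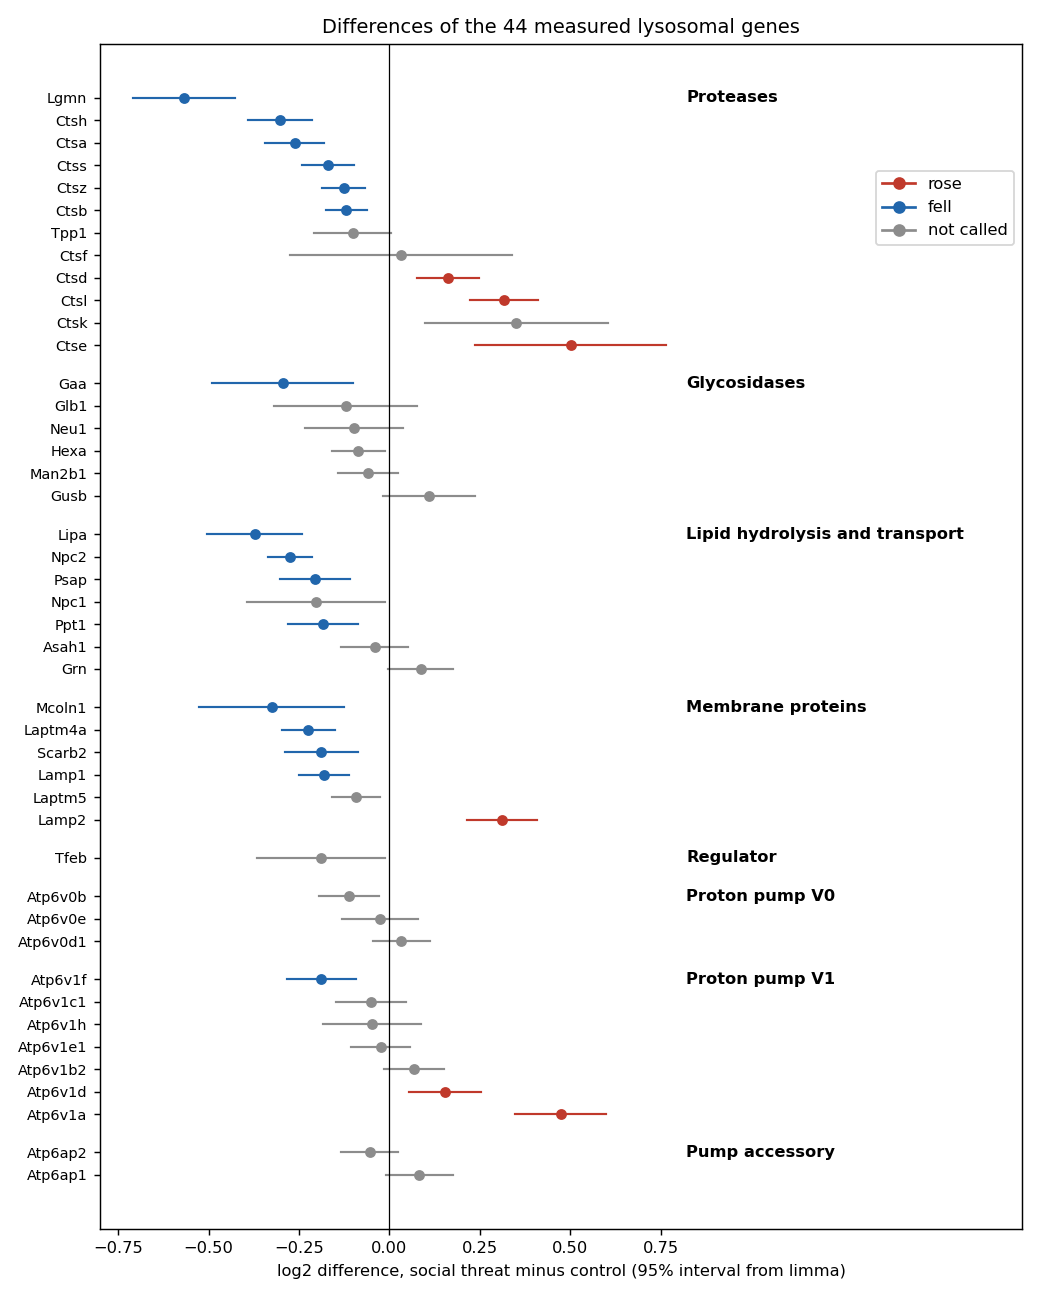
Log2 difference of each of the 44 measured lysosomal genes with its 95% interval from limma, ordered within role groups (red rose, blue fell, grey not called). Most intervals lie between -0.50 and 0.50, with Lgmn lowest at -0.57 and Ctse highest at 0.50.

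The proteases went both ways. Of 12 measured, 6 fell and 3 rose, with a median difference of -0.11. Lgmn, the asparaginyl endopeptidase legumain, which also cuts other cathepsin precursors to their mature forms, read 10.59 and 10.41 in the control pools and 9.91 and 9.94 in the social threat pools. Both threat pools lay below both control pools, by more than the control pools lay apart. The difference was -0.57 (SE 0.06, limma adjusted p = 0.000228), and the level fell by 32.5%. Ctsh, an aminopeptidase cathepsin, read 11.57 and 11.66 in control and 11.31 in each social threat pool, and fell by 0.30 (SE 0.04, limma adjusted p = 0.000634). Again no control pool came near the threat pools.

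Ctsa, the carboxypeptidase that holds neuraminidase and beta-galactosidase in a stable complex, fell by 0.26 (SE 0.04), from 11.50 and 11.53 to 11.27 and 11.24. Ctss, the cathepsin that cuts the invariant chain in antigen-presenting cells, fell by 0.17, from 13.06 and 12.98 to 12.82 and 12.88. Ctsz, a carboxypeptidase, and Ctsb, an abundant cysteine cathepsin, fell by 0.13 and 0.12, in level terms changes of -8.46% and -7.89%. The 4 pools of Ctsb read 12.60 and 12.61 in control and 12.49 and 12.48 in social threat. The pools of each group were nearly equal, and without the variance trend Ctsb was not called.

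Ctse, an aspartic protease of endosomes, read 9.14 and 9.59 in the control pools and 9.87 in each social threat pool. The control pools lay almost as far apart as the groups did. The rise was 0.50 (SE 0.12, limma adjusted p = 0.0177). It came to 0.28 without control pool 1 (adjusted p = 0.00542) and 0.72 without control pool 2, and was not called without social threat pool 1 (adjusted p = 0.125) or 2 (adjusted p = 0.124). The other probe set of Ctse read 9.28 and 9.39 in control and 9.59 and 9.62 in social threat, a rise of 0.27 (SE 0.06). Ctsl, the cysteine cathepsin that digests proteins in most cell types, read 10.98 and 10.90 in control and 11.23 and 11.28 in social threat. Both threat pools stood above both control pools, a rise of 0.32 (SE 0.04, limma adjusted p = 0.000704). As the mean of its 2 probe sets, the second of them dim, Ctsl differed by 0.17 and was not called (adjusted p = 0.128). Ctsd, the main aspartic protease of lysosomes, rose by 0.16 (SE 0.04, limma adjusted p = 0.0176), from 11.57 and 11.50 to 11.67 and 11.72.

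The other 3 proteases did not pass the test. Tpp1, a tripeptidyl peptidase, differed by -0.10 (95% interval -0.21 to 0.01) and Ctsf by 0.03 (95% interval -0.27 to 0.34). Ctsk, the collagen-cutting cathepsin of osteoclasts, read 3.35 and 3.48 against 3.70 and 3.83, below the array median in every pool, so its difference of 0.35 (adjusted p = 0.0682) is of a level that cannot be told from background. Without social threat pool 1, and equally without pool 2, Ctsb, Ctsd, Ctse and Ctsz were not called, and Ctss was not called without pool 1 (adjusted p = 0.0851).

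Of the 6 glycosidases, which strip sugars from glycoproteins, glycolipids and glycogen, 1 fell and 0 rose by limma, and 0 were higher even at an unadjusted p under 0.05. Gaa, the acid alpha-glucosidase of glycogen, read 7.91 and 7.80 in control and 7.50 and 7.62 in social threat. The groups did not overlap, and the fall of 0.30 (SE 0.09) lay at the threshold (limma adjusted p = 0.0486). It was not called without control pool 1 (adjusted p = 0.104), social threat pool 1 (0.405) or social threat pool 2 (0.178). The other 5 ranged from -0.12 (Glb1, beta-galactosidase) to 0.11 (Gusb, beta-glucuronidase), with Hexa, Neu1 and Man2b1 at -0.09, -0.10 and -0.06. Their 95% intervals left room for differences of at most 0.32 in either direction, the widest being that of Glb1 (-0.32 to 0.08). For Hexa, whose interval ran from -0.16 to -0.01, the adjusted p was 0.125. Gusb was called higher without control pool 1 (adjusted p = 0.047).

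Genes of lipid breakdown and transport fell for 4 of 7, with a median difference of -0.20, and by limma 0 rose, with 0 higher at an unadjusted p under 0.05. Lipa, the acid lipase that frees cholesterol and fatty acids from lipoprotein lipids, read 9.90 and 9.79 in control and 9.49 and 9.45 in social threat. The threat pools were the 2 lowest, and the fall was 0.37 (SE 0.06, limma adjusted p = 0.00194), and the level fell by 22.8%. Npc2, which hands cholesterol to the membrane exporter encoded by Npc1, read 12.37 in each control pool and 12.10 and 12.09 in social threat. Its pools were nearly identical within a group, and it fell by 0.28 (SE 0.03, limma adjusted p = 0.000115), the smallest adjusted p of the 44 genes. Npc1 itself differed by -0.20 and was not called (adjusted p = 0.162).

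Psap, the precursor of the saposins that present sphingolipids to their hydrolases, read 13.09 and 13.25 in control and 12.97 and 12.96 in social threat, a fall of 0.21 (SE 0.04, limma adjusted p = 0.00905). Control pool 1 lay closer to the threat pools than to control pool 2, and the difference was -0.13 without control pool 2. Ppt1, which removes palmitate from proteins, fell by 0.18 (SE 0.04), from 10.81 and 10.88 to 10.68 and 10.65. Over the mean of its 5 probe sets Ppt1 was not called (adjusted p = 0.0636). Neither Psap nor Ppt1 was called without social threat pool 1 or without pool 2, and Lipa was at adjusted p = 0.0529 without pool 2. Asah1, acid ceramidase, differed by -0.04 (95% interval -0.13 to 0.05). Grn, which encodes progranulin, read 11.99 and 11.88 in control and 12.00 and 12.05 in social threat, a difference of 0.09 that was not called (adjusted p = 0.209).

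Of the 6 measured membrane proteins, 4 fell and 1 rose. The most abundant glycoproteins of the lysosomal membrane, LAMP-1 and LAMP-2, went opposite ways at the RNA level. Lamp1 read 11.90 and 11.88 in control and 11.71 and 11.70 in social threat, and fell by 0.18 (SE 0.03, limma adjusted p = 0.0029). Lamp2, whose product also serves as the receptor of chaperone-mediated autophagy, read 11.65 and 11.78 in control and 12.01 and 12.03 in social threat, and rose by 0.31 (SE 0.04, limma adjusted p = 0.000891). In each gene the groups were clear of each other. The call of Lamp2 held when any 1 pool was left out, and that of Lamp1 did not hold without social threat pool 1 or 2, where its adjusted p reached 0.0651.

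Mcoln1, the calcium channel TRPML1 that signals to TFEB from the lysosome, read 7.34 and 7.38 in control and 6.996 and 7.07 in social threat, a fall of 0.33 (SE 0.09, limma adjusted p = 0.0349). The threat pools were the 2 lowest. It was not called without social threat pool 1 (adjusted p = 0.317), social threat pool 2 (0.198) or control pool 2 (0.051), nor over the mean of its 3 probe sets (-0.22, adjusted p = 0.151). Laptm4a fell by 0.22 (SE 0.03), from 11.89 and 11.85 to 11.66 and 11.63. Scarb2, the receptor LIMP-2 that carries glucocerebrosidase to lysosomes, fell by 0.19 (SE 0.05), from 10.35 and 10.38 to 10.18 and 10.17, and was not called without social threat pool 1 or pool 2. Laptm5, a membrane adaptor of blood cells, read 12.50 and 12.56 against 12.43 and 12.44, a difference of -0.09 that was not called (adjusted p = 0.069).

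Tfeb, the regulator, read 8.25 and 8.36 in control and 8.16 and 8.06 in social threat. Both threat pools lay below both control pools, by less than 0.1 at the nearest, and the difference of -0.19 (95% interval -0.37 to -0.01) was not called (limma adjusted p = 0.163). It was called under none of the 11 alternatives.

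**Figure D3:**
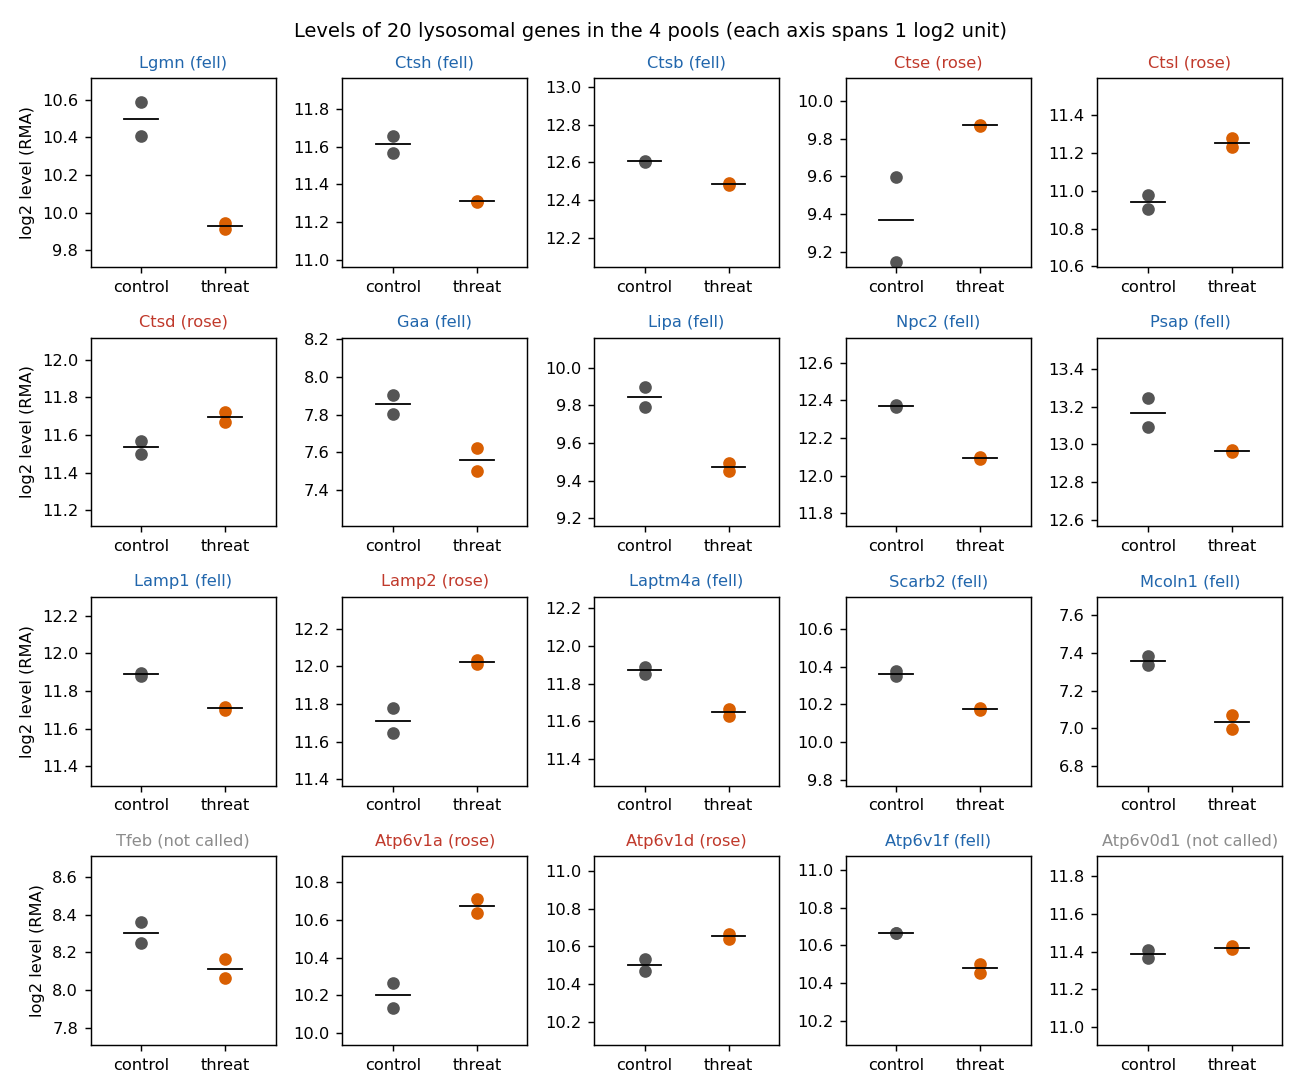
Log2 levels of 20 of the lysosomal genes in the 2 control pools (grey) and the 2 social threat pools (orange), with group means as lines and every axis spanning 1 log2 unit. The groups are apart in each of these chosen panels, as in 58.2% of all genes. Tfeb and Atp6v0d1 were not called, and the nearest pools of Atp6v0d1 read 11.409 (control) and 11.412 (social threat). The control pools of Ctse, at 9.14 and 9.59, are the most scattered.

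Of the 12 measured subunits and accessory proteins of the proton pump 2 rose and 1 fell, with a median difference of -0.03. The share called was 25%, against 21.1% of all genes and 33.3% of genes with a mean above the array median. The other 32 lysosomal genes had 4 rises, 15 falls and a median of -0.12. Whether the pump genes and the other 32 differ was not tested. The 3 pump genes that passed belong to the cytosolic sector. Atp6v1a, the catalytic subunit that hydrolyses ATP, read 10.13 and 10.27 in control and 10.71 and 10.63 in social threat. The threat pools stood far above the control pools, with a rise of 0.47 (SE 0.06, limma adjusted p = 0.000355), or 38.8% in level. Atp6v1b2, which forms the catalytic ring with it, differed by 0.07 (95% interval -0.01 to 0.15) and was not called.

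Atp6v1d, a subunit of the central rotor, rose by 0.15 (SE 0.04), from 10.53 and 10.47 to 10.64 and 10.67, close to the threshold (limma adjusted p = 0.0454). It was not called without social threat pool 1, social threat pool 2 or control pool 2 (adjusted p = 0.244, 0.357 and 0.077). Atp6v1f, another rotor subunit, fell by 0.19 (SE 0.04, limma adjusted p = 0.0149), from 10.67 and 10.66 to 10.46 and 10.50, and was not called without social threat pool 1 or pool 2. Atp6v1d and Atp6v1f thus differed in opposite directions, and neither was called without the variance trend. The remaining cytosolic subunits, Atp6v1c1, Atp6v1e1 and Atp6v1h, lay between -0.05 and -0.02, with intervals that reached no further than -0.18 and 0.09.

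In the membrane sector 0 of 3 measured subunits were called by limma, and 1 of them, Atp6v0b, had an unadjusted p under 0.05 (0.0147). Atp6v0d1, which couples the sectors, read 11.41 and 11.37 in control and 11.43 and 11.41 in social threat, a difference of 0.03 (95% interval -0.05 to 0.11). Atp6v0e read 11.50 and 11.36 against 11.41 and 11.40, with the threat pools between the control pools. Atp6v0b differed by -0.11 (adjusted p = 0.0794). The accessory proteins Atp6ap1 and Atp6ap2, which help assemble the pump, differed by 0.08 and -0.05, and neither was called.

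A gene's other probe sets give a second reading from the same RNA. The 44 genes had 100 probe sets, of which 11 rose and 32 fell, against 7.09% and 8.67% of all probe sets. The shares over all probe sets take in many dim ones, and shares of bright ones alone were not worked out. No gene had probe sets called both ways. Of the 16 called genes with more than 1 probe set, 12 had a further one called in the same direction. Npc2 had 3 of 4 called lower, from -0.49 to -0.28, and Lamp2 had 3 of 4 called higher, by 0.31 to 0.52. All 3 probe sets of Ctsz and both of Ctsh, Gaa, Psap and Scarb2 fell, and both of Atp6v1a and Ctse rose.

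The size of a difference depended on the probe set read. For Ctsb, 4 of 5 probe sets fell, by 0.12 on the brightest and by 0.36 on each of 2 with control levels between 9.14 and 9.95. The other of these 4, the dimmest, read 6.68 and 7.42 in control and 6.09 and 5.75 in social threat, a fall of 1.13 (SE 0.21), with control pools that lay widely apart. The probe set that was not called differed by -0.10 (adjusted p = 0.101). Over the mean of their probe sets Ctsb and Ctsz differed by -0.42 and -0.22, and Scarb2 fell by 0.35 on its second probe set. Of the genes whose brightest probe set was not called, 4 had another that was: Grn rose by 0.23 on 1 of 3, and Laptm5, Atp6ap2 and Atp6v1h fell by 0.32, 0.17 and 0.54 on 1 each of their 5, 3 and 3. These 4 are counted as not called throughout, and which transcripts each probe set reads was not examined.

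**Figure D4:**
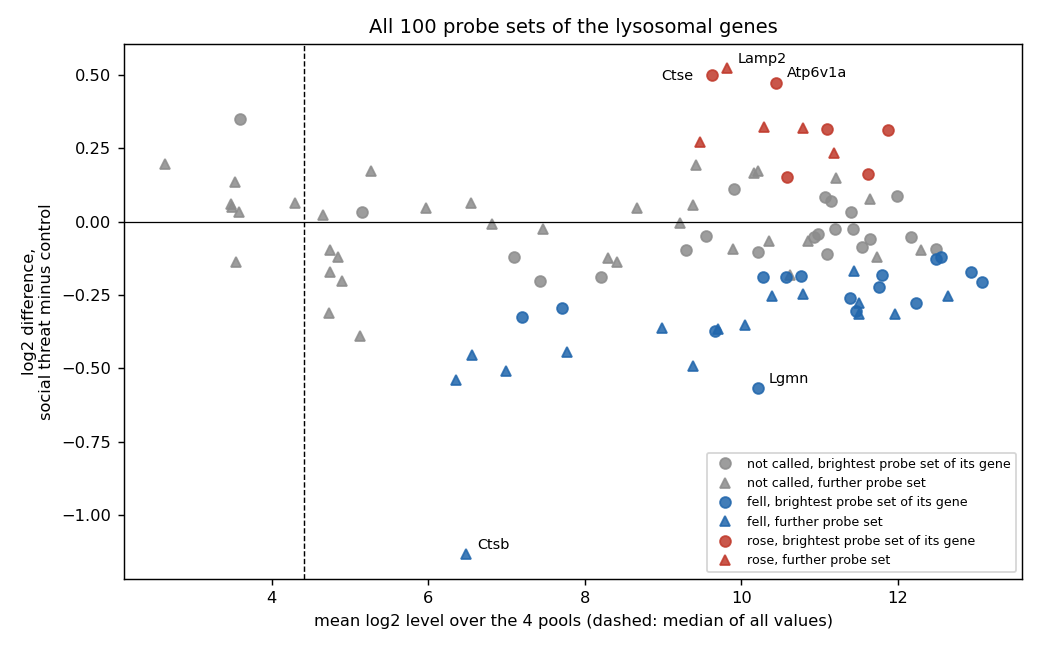
Mean log2 level over the 4 pools against the log2 difference for the 100 probe sets of the 44 genes. Circles are the probe set used for each gene and triangles its further probe sets. Of all points the dim Ctsb probe set lies lowest at -1.13, and no called probe set lies left of the dashed line at the array median of 4.42.

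Other genes of the lysosome were read from lists that were not part of the 46. For comparison, 21.1% of all genes were called, and 33.3% of genes with a mean above the array median. Of 26 further hydrolases and their helpers 11 fell and 4 rose (57.7% called), with a median difference of -0.25. Scpep1, a serine carboxypeptidase, fell by 0.66 (from 10.58 and 10.65 to 9.96 and 9.94), and differed by -0.48 over the mean of its 2 probe sets. Gla, alpha-galactosidase, fell by 0.56 and Dnase2a, the nuclease that clears engulfed DNA, by 0.54. Galns, which removes sulphate from keratan sulphate, went the other way, from 7.71 and 7.75 to 8.73 and 8.77, a rise of 1.02 (SE 0.07, limma adjusted p = 1.37e-05) on the brighter of its 2 probe sets. Over the mean of both it differed by 0.43 (adjusted p = 0.00575). Without social threat pool 1 there were 7 falls and 1 rise in this list and without pool 2 there were 6 and 2, and Dnase2a was called in neither (adjusted p = 0.125 and 0.0633).

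Of 25 further membrane proteins 8 fell and 0 rose by limma, with a median of -0.08. The share called, 32%, was near the 33.3% of genes with a mean above the array median. At an unadjusted p under 0.05 the only higher one was Slc36a1, an amino acid transporter (0.33, adjusted p = 0.0636). Slc15a4 and Slc15a3, transporters of histidine and peptides, fell by 0.62 and 0.42, and Slc15a4 differed by -0.32 over the mean of its 2 probe sets. The channel genes Mcoln2 and Mcoln3, relatives of Mcoln1, fell by 0.62 and 0.42 as well, Mcoln3 from levels of 3.77 and 3.98 that cannot be told from background. Neither channel was called without social threat pool 1 or pool 2, and 4 falls were left in the list in each case. Without control pool 2, Mcoln3 was at adjusted p = 0.128, and over the mean of its 2 probe sets at 0.0905. Of 11 further pump subunits 3 rose and 0 fell by limma (27.3% called), with 0 lower at an unadjusted p under 0.05. In this list 5 of the 11 had a mean below the array median. Atp6v0a1, which anchors the stator in the membrane, rose by 0.49 (SE 0.08), Atp6v1g1 by 0.34 (SE 0.04) and Atp6v1g2 by 0.73, the last from 4.35 and 4.64, levels near the array median. Without social threat pool 2 only Atp6v1g1 of these was called, and Atp6v0a1 was not called without pool 1 (adjusted p = 0.0634). Over the mean of its 3 probe sets Atp6v1g1 differed by 0.15 and was not called (adjusted p = 0.0705).

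The machinery that regulates and feeds the lysosome was mixed. Among 19 genes of the TFEB family and of mTORC1, the kinase complex that holds TFEB in the cytoplasm, 5 fell and 3 rose. The share called was 42.1%, against 33.3% of genes with a mean above the array median. Tfec, a relative of Tfeb found in macrophages, rose by 1.08 (SE 0.10, limma adjusted p = 7.65e-05), from 6.49 and 6.37 to 7.57 and 7.44. Lamtor4, a subunit of the scaffold that docks mTORC1 on the lysosome, rose by 0.57, and Flcn, folliculin, which acts on the Rag GTPases there, fell by 0.54, with a difference of -0.34 over the mean of its 3 probe sets. Rragd, a Rag GTPase gene, fell by 0.78 with control pools far apart at 6.20 and 5.55, and differed by -0.46 without control pool 1 (adjusted p = 0.0504). It was not called without social threat pool 1 (adjusted p = 0.161) or 2 (0.109), nor over the mean of its 3 probe sets (-0.25, adjusted p = 0.0955). The falls in this list numbered 2 without social threat pool 1 and 2 without pool 2.

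Of 19 genes for delivery of enzymes to the lysosome 6 fell and 3 rose (47.4% called). The sorting receptor genes went both ways. Sort1 and Igf2r, the larger mannose 6-phosphate receptor gene, rose by 0.60 and 0.55, and M6pr, the smaller one, fell by 0.22 (SE 0.04, limma adjusted p = 0.00367), from 11.31 and 11.39 to 11.13 and 11.12. M6pr differed by -0.40 over the mean of its probe sets and was not called without social threat pool 1 or 2 (adjusted p = 0.0569 and 0.0688). Gga2, an adaptor that packs such receptors at the Golgi, and Vps18, a subunit of the tethering complex of late endosomes, fell by 0.53 and 0.52. Falls numbered 2 without social threat pool 1 and 1 without pool 2. Igf2r was not called without social threat pool 1 (adjusted p = 0.0915), nor Gga2 without pool 2 (adjusted p = 0.0582). Of 20 autophagy genes 4 rose and 3 fell. The share called, 35%, was near the 33.3% of genes with a mean above the array median. Wipi1 rose by 1.28 (SE 0.09), from 7.20 and 7.08 to 8.36 and 8.48, and Atg9a by 0.67. Over the mean of its 6 probe sets Wipi1 differed by 0.855. Gabarapl1 fell by 0.64, and Sqstm1, the cargo receptor p62, by 0.50. Cst7 and Cst3, which encode cystatins that inhibit cysteine cathepsins, went opposite ways, Cst7 up by 0.71 and Cst3 down by 0.29, while Cstb, the other gene of that list, was not called.

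**Figure D5:**
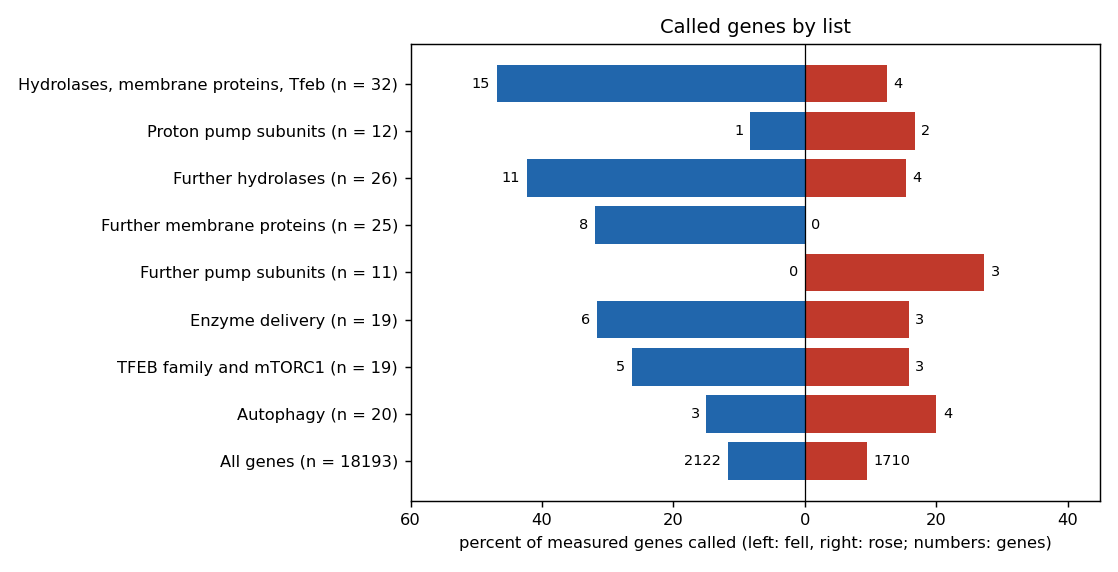
Share of measured genes called in each list, falls to the left and rises to the right, with the number of genes at each bar and all 18193 genes at the bottom for comparison. Falls outnumber rises for the hydrolases and membrane proteins (15 against 4). The further pump subunits had 3 rises and 0 falls, 27.3% called, against 21.1% of all genes and 33.3% of genes with a mean above the array median.

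Lists of cell type markers were read in the same way. Beside their counts, 21.1% of all genes were called, and 33.3% of genes with a mean above the array median. All 8 measured markers of neutrophil precursors rose (median 3.76), with a mean level of 8.68 to 8.80 in the control pools and 11.68 to 11.74 in the social threat pools, and of 6 markers of mature neutrophils 5 rose and 1 fell (12.32 to 12.35 against 12.63 to 12.65). Red pulp macrophage markers fell for 11 of 15 and rose for 1, with a mean level of 10.07 to 10.11 in control and 9.65 to 9.67 in social threat. That list includes Cd68, which also stands among the further membrane proteins. Markers of conventional dendritic cells fell for 9 of 9 (8.85 in each control pool against 7.65 to 7.73) and those of B cells for 8 of 9 (8.53 to 8.55 against 7.53 to 7.59).

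Of the remaining marker lists, patrolling monocytes fell for 5 of 6, T cells for 7 of 7 and NK cells for 5 of 7. Plasmacytoid dendritic cell markers fell for 3 of 5 and eosinophil markers for 2 of 5 (40% called). Erythroid markers rose for 6 of 8, platelet markers for 5 of 7 and classical monocyte markers for 3 of 6 (50% called). The eosinophil and classical monocyte shares were the nearest to the 33.3% of genes with a mean above the array median. Without social threat pool 1, as without pool 2, 3 NK cell, 3 platelet and 1 eosinophil marker were called. The part of these lists in the lysosomal differences was not tested. In RNA from mixed cells, fewer cells of a type and less RNA per cell cannot be told apart.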

How the data were processed

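Each value in the deposited table is a log2 level of 1 probe set on an Affymetrix MOE430 2.0 array. The submitters' processing notes give RMA as the method, without a version. RMA corrects background, normalizes across arrays and compresses differences of dim probe sets. The table held 45037 probe sets in 4 arrays with no other sample columns. Probe sets were named by the platform annotation: 34945 had 1 symbol, 932 several and 9160 were not listed. The groups were compared by limma 3.58.1 under R 4.3.3 (lmFit, eBayes with a variance trend, 2 residual and 7.14 prior degrees of freedom, two-sided, Benjamini-Hochberg over all probe sets). The code was tested on simulated data. Nothing in the labels says the pools were handled separately after isolation, so p-values measure only the spread between these pools, and the precision is limited by the number of arrays. Array batches are not given in the sources used here; one aligned with the groups and social threat cannot be told apart. The members and lists were chosen with earlier results of these data known, so no p-value over a list is given. Genes given in full were Tfeb, Lamp1, Ctsd, Ctsb, Laptm5, Atp6v1a and up to 4 called genes of each list with the largest difference; marker genes, which the rule also covers, are given as lists, and Cstb, Cd68, Slc36a1 and M6pr were named after their values were seen. Alternatives were no variance trend, a second quantile normalization, median centring, a filter on dim probe sets, each pool left out, the pool number as a block, and other choices of probe set.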

Additional observations from a re-analysis of the deposited data

How the results depend on the processing

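No called lysosomal gene changed sign under any of the 11 alternatives, but for most of them this outcome was fixed in advance. In every called gene the pools of the groups did not overlap, so leaving out 1 pool could not change the sign. Dropping the variance trend, filtering dim probe sets and adding the block leave the difference itself as it was. Without the variance trend 4689 probe sets were called in place of 7099, and 1 rise and 2 falls among the lysosomal genes in place of 6 and 16. Leaving out 1 pool gave 3171 to 8721 called probe sets, 3 to 8 rises, 6 to 16 falls and a median lysosomal difference between -0.109 and -0.092. With 1 social threat pool left out, the lone pool is assumed to vary like the control pools. The median, -0.095 as reported, was -0.085 after a second quantile normalization, -0.105 over the mean of each gene's probe sets and -0.154 for the probe set with the smallest p. The labels do not say whether pools of the same number were paired. Same-numbered pools deviated from their group means with a correlation of 0.05 over all probe sets and -0.17 over the 44 genes. With 2 pools a group, these values cannot show whether the pools were paired. With the pool number as a replicate block, 8168 probe sets were called and 6 rises and 17 falls among the lysosomal genes, all 22 reported calls included. Without the variance trend, falls among further membrane proteins, TFEB and mTORC1 genes and delivery genes numbered 5, 1 and 3 in place of 8, 5 and 6, and 2 in place of 5 mature neutrophil markers rose.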
